A study of Mus musculus with 768 samples.

Results

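Cells that copy their DNA and divide transcribe a shared set of genes in a fixed order, and 47 of these genes are described here across single Schwann cells (SCs) of the adult mouse sciatic nerve. The set was chosen by name and holds 17 genes of S phase, 26 genes of G2 phase and mitosis (G2/M), and 4 genes of chromatin proteins that are abundant in dividing cells. All 47 were found among the 25700 genes of the count table, of which 25587 matched a gene symbol.

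The cells came from P0Cre:ReYFP:βAct-DsRed mice on a C57BL/6J background at postnatal day 60. In these mice P0Cre switches on eYFP in the SC lineage, while DsRed is expressed under the β-actin promoter. Single eYFP-positive cells were sorted onto 2 plates of 384 wells, 768 wells in all, and each plate held cells pooled from separate male and female mice. There was 1 group and no treatment, so the plates are 2 replicates of the same condition. Libraries were made with Smart-Seq2, which reads whole transcripts and has no molecular identifiers.

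A cell was used when it had 1500 or more detected genes and 20000 or more reads in genes, which 304 wells of plate 1 and 319 wells of plate 2 reached (623 in all). Their depth ran from 20714 to 2581404 reads in plate 1, with a median of 172196.5, and from 25510 to 4076083 in plate 2, with a median of 473550. Wells with 1500 or more genes but under 20000 reads were kept apart, and the remaining 44 and 50 wells had under 1500 genes and were left out. To compare cells of different depth, each cell was thinned to 20000 reads, and a gene counted as read in a cell when 1 or more of these reads fell in it. At this equal depth the median number of detected genes was 2341 in plate 1 and 1256 in plate 2, so the plates were not equally rich. Levels are given as CPM, the reads of a gene scaled to the same total of reads in genes in every cell. Intervals are exact 95% binomial or Poisson intervals and cover counting error only.

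In S phase the MCM proteins (Mcm2 to Mcm7) form the helicase that opens the DNA, Cdc6 and Cdt1 load it, Gins2 belongs to the active helicase, and Pcna is the clamp that holds the polymerase. Tyms, Tk1, Rrm1 and Rrm2 supply nucleotides, and E2f1 and the E cyclins Ccne1 and Ccne2 drive the entry into S phase. For mitosis, Cdk1 with the cyclins Ccnb1, Ccnb2 and Ccna2 forms the kinase that starts division, the kinesins (Kif11, Kif20a, Kif23), Tpx2, Nusap1 and Prc1 build the spindle, Cenpa, Cenpe and Cenpf sit at centromeres and kinetochores, and Bub1 and Bub1b guard chromosome attachment. Aurka, Aurkb, Plk1 and Pbk are mitotic kinases, Birc5 and Cdca8 are partners of Aurkb, and Cdc20 and Ube2c act in the destruction of cyclins. Top2a untangles the copied DNA, and Mki67 encodes the Ki-67 protein that marks cycling cells. SCs divide in the young nerve, mostly leave the cell cycle as they mature into myelinating SCs (mSCs) or non-myelinating Remak SCs (nm(R)SCs), and can enter it again after injury.

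Many of these genes share short promoter words, so the 250 bases upstream of the start were read from RefSeq (GRCm38.p6), which held a promoter for 21 of 26 G2/M members, 14 of 17 S members and 2 of 4 chromatin members. The words searched on both strands were CCAAT, the core of the NF-Y site, TTTGAA and TTTAAA, the core words of the cell cycle homology region, and TTTCGCGC and TTTGGCGC, the textbook E2F site. CCAAT was present upstream of 19 of 21 G2/M members (90.5%) and 8 of 14 S members (57.1%), against 39.2% of all 16591 genes in the promoter set, and 2 or more copies stood upstream of 13 of 21 (61.9%), 5 of 14 (35.7%) and 12.9%. TTTGAA or TTTAAA was present upstream of 13 of 21 G2/M members (61.9%), 4 of 14 S members (28.6%) and 25.5% of all genes, and both kinds of word stood together in 12 of 21 (57.1%), 2 of 14 (14.3%) and 9.54%. TTTCGCGC or TTTGGCGC was found for 1 of 21 G2/M members (4.76%) and 2 of 14 S members (14.3%), against 0.988% of all genes. These are matches of letters, in a window that for some members also holds an annotated exon. Words on the 2 strands can overlap, and a palindrome such as TTTAAA was counted once.

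6 promoters are shown, from members read often in cells of their own phase and with no annotated exon in the window. 4 belong to the G2/M members Ccnb2 (chr9:70421555-70421804, minus strand), Mki67 (chr7:135716380-135716629, minus strand), Cenpf (chr1:189688087-189688336, minus strand) and Top2a (chr11:99024190-99024439, minus strand), and carry 3, 3, 2 and 6 copies of CCAAT. Birc5, like Top2a, was read in 11 G2/M-leaning cells of plate 1 and has no annotated exon in the window. It holds 0 copies of CCAAT and 1 TTTGAA or TTTAAA word, and is not shown. The other 2 shown belong to the only S members with the E2F word, Mcm5 (chr8:75109259-75109508, plus strand) and Mcm6 (chr1:128359706-128359955, minus strand). Each runs 5′ to 3′ along the strand of the gene and ends at the base before the start, and capitals mark the words above on either strand.
Ccnb2: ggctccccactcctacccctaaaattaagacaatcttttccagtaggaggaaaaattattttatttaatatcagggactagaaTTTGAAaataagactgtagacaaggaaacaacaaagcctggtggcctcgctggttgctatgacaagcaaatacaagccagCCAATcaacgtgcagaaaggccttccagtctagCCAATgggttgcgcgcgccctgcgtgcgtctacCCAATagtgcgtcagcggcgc
Mki67: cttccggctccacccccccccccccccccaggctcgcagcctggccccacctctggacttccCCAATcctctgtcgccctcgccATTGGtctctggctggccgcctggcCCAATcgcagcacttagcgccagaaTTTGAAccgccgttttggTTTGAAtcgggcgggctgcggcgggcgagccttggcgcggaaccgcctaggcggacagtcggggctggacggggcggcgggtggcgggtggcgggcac
Cenpf: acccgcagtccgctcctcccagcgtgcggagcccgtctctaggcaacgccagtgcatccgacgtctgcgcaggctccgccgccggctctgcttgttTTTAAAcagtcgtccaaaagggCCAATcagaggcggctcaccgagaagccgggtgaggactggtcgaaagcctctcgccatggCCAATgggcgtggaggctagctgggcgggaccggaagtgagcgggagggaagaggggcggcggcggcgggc
Top2a: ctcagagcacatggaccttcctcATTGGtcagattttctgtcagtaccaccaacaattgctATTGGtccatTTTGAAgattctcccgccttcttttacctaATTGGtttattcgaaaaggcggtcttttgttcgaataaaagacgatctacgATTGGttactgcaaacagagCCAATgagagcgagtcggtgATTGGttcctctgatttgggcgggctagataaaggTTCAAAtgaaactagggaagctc
Mcm5: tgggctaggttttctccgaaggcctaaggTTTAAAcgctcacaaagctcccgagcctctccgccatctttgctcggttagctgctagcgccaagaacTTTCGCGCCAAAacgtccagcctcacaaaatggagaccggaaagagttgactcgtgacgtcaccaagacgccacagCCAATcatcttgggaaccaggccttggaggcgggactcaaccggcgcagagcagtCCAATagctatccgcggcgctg
Mcm6: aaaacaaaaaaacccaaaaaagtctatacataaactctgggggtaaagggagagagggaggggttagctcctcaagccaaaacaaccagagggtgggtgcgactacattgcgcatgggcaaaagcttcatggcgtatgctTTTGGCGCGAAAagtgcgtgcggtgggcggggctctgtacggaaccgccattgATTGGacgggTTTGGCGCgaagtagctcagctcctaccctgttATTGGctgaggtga

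Within this window Top2a also held 2 and Mki67 held 2 of the TTTGAA or TTTAAA words, Ccnb2 and Cenpf held 1 each, and Mcm6 held none of them. Mcm5 and Mcm6 held 2 and 3 matches to the E2F words.

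To find the cells that expressed many of these genes, the 43 S and G2/M members were counted in each cell, and a cell with 10 or more was taken as a cell with many members. The 4 chromatin members were not used for this. The count reached 10 in 22 of 304 cells of plate 1 (7.24%, interval 4.59% to 10.8%) but, in plate 2, in 2 of 319 cells (0.627%, interval 0.0760% to 2.25%). The mean over plates was 3.93% ± 4.67 (SD, n = 2), with no overlap between the intervals of plates 1 and 2. A test over plates is not possible with 2. The bar of 10 was the same in both, although the median number of genes at equal depth was 2341 in plate 1 and 1256 in plate 2. The part of this difference in the shares was not tested. Just inside the threshold lay 3 cells with 10 members and 1 with 11, and just outside lay 3 cells with 9 and 1 with 8.

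The 22 cells of plate 1 had between 10 and 36 members with a read, with a median of 27 of 43. In the remaining 282 cells of that plate the median was 1 and the highest number was 9, and 42 of them had none. In plate 2 the 317 remaining cells had a median of 1 and a maximum of 9 members, and 137 had none. In all, 15 cells had 20 or more members, each of them in plate 1, and 9 had 10 to 19. A further 24 cells had 5 to 9 members, so there was no gap at the threshold.

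**Figure D1:**
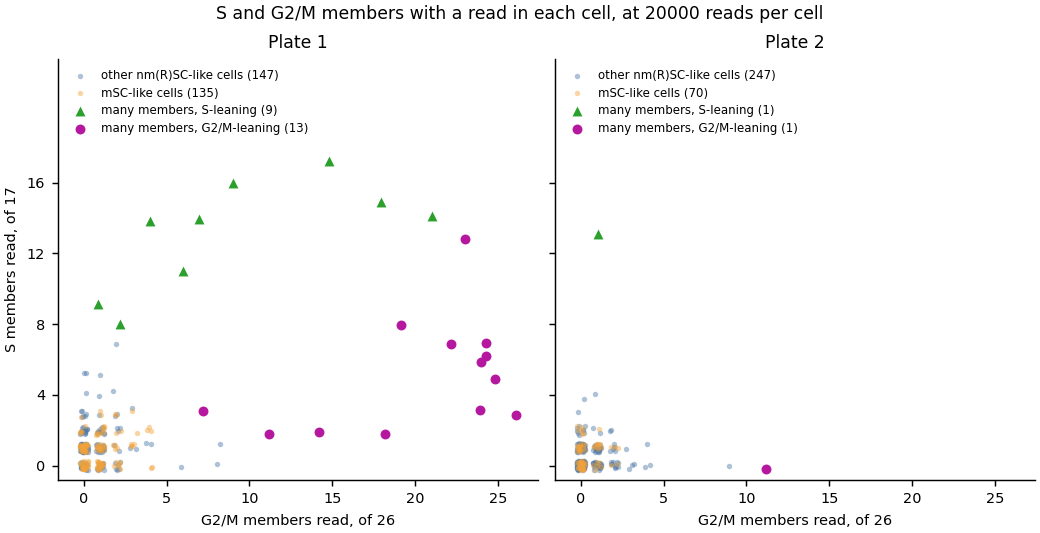
Number of G2/M members (x axis, of 26) and S members (y axis, of 17) with 1 or more reads in each kept cell thinned to 20000 reads, in plate 1 (left) and plate 2 (right). Each point is a cell, moved slightly at random so that points do not hide each other, and the 24 cells with 10 or more of the 43 members lie above or to the right of most other cells, with no gap at the threshold.

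To describe their phase, the share of S members and the share of G2/M members read in a cell were compared, and the higher share gave the leaning. In plate 1, 9 cells leaned to S and 13 to G2/M. The S-leaning cells had 8 to 17 S members (median 14) and 1 to 21 G2/M members (median 7). The G2/M-leaning cells had 2 to 13 S members (median 5) and 7 to 26 G2/M members (median 23). The leanings formed a range and not separate sets: 1 S-leaning cell with 35 members had 14 S and 21 G2/M members and leaned to G2/M when the mean log level of each list was used in place of the share.

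After thinning, both cells of plate 2 held almost only members of 1 phase. The first, with 114250 reads before thinning, had 11 G2/M members and no S member. The second, with 2089011 reads before thinning, had 13 S members and 1 G2/M member. Before thinning the first also held 1 read of Pcna. The second then held 68 reads of Top2a, 2 each of Cdc20 and Nusap1, and 1 each of Birc5, Ube2c and Ccnb1. At equal depth these cells had 1063 and 3298 detected genes. The first number was the lowest among the 24 cells, and the second was close to the median of those in plate 1.

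The leaning was compared with 33 other S genes and 33 other G2/M genes that were not used to choose or sort the cells. S-leaning cells of plate 1 had 11 to 25 of the other S genes (median 23) and 6 to 26 of the other G2/M genes (median 15). In G2/M-leaning cells the numbers were 0 to 25 (median 10) and 9 to 31 (median 23), so each leaning had the higher median on its own side, with overlap. In plate 2 the S-leaning cell had 19 and 2, and the G2/M-leaning cell 1 and 13. Over both lists the 24 cells had 12 to 56 of the 66 genes (median 35). The other cells had a median of 6 and a maximum of 16 in plate 1, and a median of 3 and a maximum of 11 in plate 2, so the ranges overlapped at their ends. Summed, the 66 genes were higher in the cells with many members than in the other nm(R)SC-like cells by 3.18 (log2) in plate 1 and 1.52 in plate 2, a mean of 2.35 ± 1.18 (SD, n = 2). These sums were not thinned, so in plate 2 the S-leaning cell with 2089011 reads outweighed the other with 114250. With each cell thinned first, the values were 2.92 and 2.13, a mean of 2.52 ± 0.56 (SD, n = 2). No test was made, since plate 2 gave only 2 such cells.

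Mki67 (chromosome 7, 135689784 to 135716361) and Top2a (chromosome 11, 98992943 to 99024189), which the study follows as markers of proliferation, were not read in every one of these cells. Mki67 was read in 18 of 22 cells of plate 1, with 0 to 1660.7 CPM and a median of 256 CPM. Top2a was read in 16 of 22 cells, with 0 to 3992.4 CPM and a median of 823 CPM. Both were read in 14 and neither in 2, and these 2 leaned to S and had 10 members each.
By leaning, Mki67 was read in 6 of 9 S-leaning and 12 of 13 G2/M-leaning cells, and Top2a in 5 of 9 and 11 of 13. In plate 2 no read of Mki67 lay in either cell even before thinning, and Top2a stood at 158 CPM in the G2/M-leaning and 32.6 CPM in the S-leaning cell.

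Conversely, a read of these markers was not confined to the cells with many members. In plate 1 most cells with a read were such cells, 18 of 22 for Mki67 and 16 of 25 for Top2a. In plate 2 the cells with many members were 0 of 9 and 1 of 3. Outside them Mki67 was read in 4 of 282 plate 1 cells (1.42%, interval 0.388% to 3.59%) and, in plate 2, 9 of 317 (2.84%, interval 1.31% to 5.32%), and those cells had a median of 5 and of 2 members, with at most 8 and 4. Top2a was read in 9 and 2 of the other cells, and 1 cell of plate 1 and none of plate 2 had both.

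Across the members, the number of plate 1 cells with a read ran from 5 to 18 of 22 for S and G2/M genes. Most often read were Mki67 and Cdc20 in 18 cells, followed by Cdca8, Cdk1, Ccna2 and Tk1 in 17 cells each. Cdc20, the activator of the anaphase-promoting complex, ran from 0 to 1905.1 CPM with a median of 417 CPM, and Cdk1, the kinase itself, from 0 to 3375.6 CPM. Both were read in few of the other cells of that plate, 12 and 13 of 282. Tk1, the salvage kinase for thymidine, was read in 7 of 9 S-leaning and 10 of 13 G2/M-leaning cells and thus in most cells of both leanings.

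Least often read were Bub1, E2f1 and Ccne1 in 5 of 22 cells, Bub1b in 6 and Mcm2 in 7. Bub1 was read in 4 G2/M-leaning and 1 S-leaning cell, and Bub1b in 6 and 0. Mcm2 was read in 6 S-leaning cells and 1 G2/M-leaning cell, with a highest level of 541 CPM. All 5 had a median of 0 CPM in the 22 cells before thinning. A member without a read was not detectable at the depth of that cell.

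Some members followed the leaning closely, which is in part the way the leaning was set. Cdc20, Ccnb2 and Cenpa were read in 13 of 13 G2/M-leaning cells and in 5, 3 and 2 of 9 S-leaning cells. Pcna and Mcm7 were read in 9 of 9 S-leaning cells and in 7 and 5 of 13 G2/M-leaning cells. Summed over cells, Pcna stood at 1815.9 CPM in S-leaning and 492 CPM in G2/M-leaning cells, and Ube2c, which passes ubiquitin to cyclins, at 107 CPM and 1496.7 CPM.

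**Figure D2:**
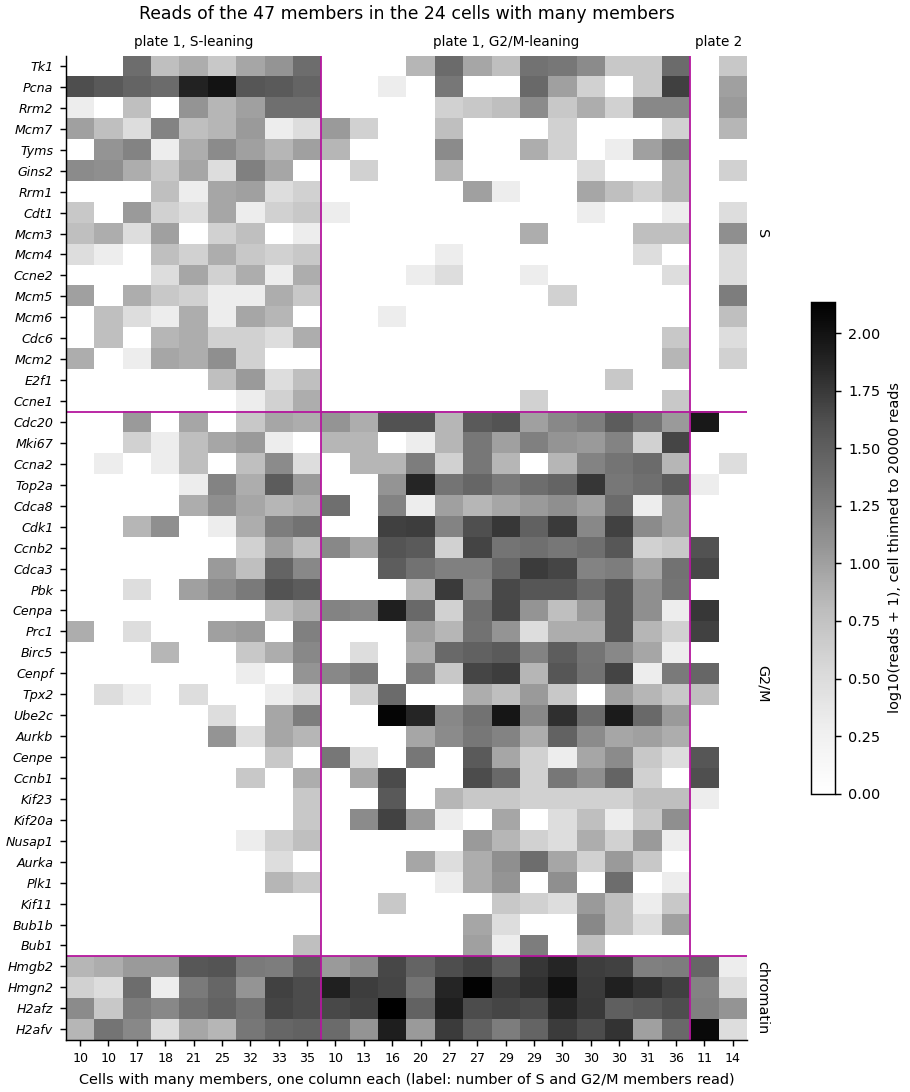
Reads of the 47 members (rows, S above, G2/M in the middle, chromatin below, each ordered by the number of cells with a read) in the 24 cells with many members (columns), as log10(reads + 1) after thinning each cell to 20000 reads. The 9 S-leaning cells of plate 1 are on the left, the 13 G2/M-leaning cells in the middle and the 2 cells of plate 2 on the right, and the chromatin members are read in all 24.

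The chromatin members were not used to choose the cells. Hmgb2 and Hmgn2, which bind and bend DNA or loosen nucleosomes, and H2afz and H2afv, which encode variants of histone H2A, were each read in 22 of 22 cells of plate 1 and 2 of 2 of plate 2. Hmgb2 ran from 296 to 3672.2 CPM in the 22 cells, with a median of 1398.6 CPM, while the other nm(R)SC-like cells of that plate had a median of 6.38 CPM and the mSC-like cells one of 1.77 CPM. These genes were not silent elsewhere: they were read in 30.9% to 57.8% of the other cells of plate 1 and in 15.8% to 47.6% of those of plate 2. Their summed level was 4250 to 15450 CPM in the G2/M-leaning cells of plate 1 (median 9500 CPM) and 1350 to 7150 CPM in the S-leaning cells (median 3450 CPM). In the other nm(R)SC-like cells of plate 1 it ran from 0 to 6150 CPM (median 450 CPM), so the groups overlapped.

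In plate 1 the cells with many members were deeper and richer than the other cells by their medians. They had a median of 271526 reads against 176040 in the other nm(R)SC-like cells and 169209 in mSC-like cells. Thinned to the same 20000 reads, they had a median of 3269 genes (1519 to 4198), against 2324 and 2295. In plate 2 the S-leaning cell, with 2089011 reads and 3298 genes at equal depth, lay above the medians of 436254 reads and 1204 genes in the other nm(R)SC-like cells, and the G2/M-leaning cell, with 114250 reads and 1063 genes, lay below both. The part of this richness in the number of members was not tested.

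To learn which class of SC these cells belonged to, the other 599 cells were clustered on genes without the 47 members. This gave 4 clusters, 2 of which were mSC-like (121 cells led by Ncmap, Pllp, Cldn19 and Prx, and 84 cells led by Mfap5 and Ogn, which has no naming marker among its 10 leading genes) and 2 nm(R)SC-like (204 cells led by Ednrb, and 190 cells led by Apoe, Aldh1a1 and Scn7a). Each cell with many members was then placed in the class of its plate whose mean profile correlated more with its own, over variable genes without any of the cell cycle lists. The same rule put 586 of the 599 clustered cells (97.8%) back in their own class. Those cells had been clustered on largely the same variable genes, so this share does not measure placement of cells left out of the clustering. The rule chooses between mSC-like and nm(R)SC-like only.

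All 24 cells were placed as nm(R)SC-like, and 24 of 24 were so by a score of the marker lists alone and without integration of the plates. In plate 1 the correlation with the nm(R)SC-like profile ran from 0.468 to 0.657 and was higher than that with the mSC-like profile by 0.0384 to 0.148 (median 0.102). In plate 2 the difference was 0.178 for the G2/M-leaning and 0.0257 for the S-leaning cell, the smallest of all. Of the nm(R)SC-like clusters the one led by Ednrb was the nearer for each of the 24, a choice of comparison made after the data were seen. As a share of nm(R)SC-like cells, cells with many members made up 22 of 169 (13.02%, interval 8.34% to 19.04%) on the first plate and, on the second, 2 of 249 (0.803%, interval 0.0974% to 2.87%). As a share of mSC-like cells they were 0 of 135 in plate 1 (interval 0% to 2.70%; a limit of 3 counts allows up to 2.22%) and 0 of 70 in plate 2 (interval 0% to 5.13%; the same limit allows up to 4.29%).

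The marker lists showed where these cells stood. The summed level of the 11 mSC genes was 1250 to 6750 CPM in the 22 cells of plate 1 (median 3700 CPM). It had a median of 6750 CPM in the other nm(R)SC-like and 69450 CPM in the mSC-like cells of that plate. The 9 nm(R)SC genes were at 450 to 4200 CPM (median 1200 CPM), between the medians of 3350 CPM in the other nm(R)SC-like and 50 CPM in the mSC-like cells. Both class lists were thus below the median of the other nm(R)SC-like cells in the median cell with many members.

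Single markers were also counted. Before thinning, Sox10, the transcription factor of the SC lineage, had reads in 21 of 22 cells of plate 1. Its level ran from 0 to 1046.6 CPM with a median of 301 CPM. S100b, a calcium-binding protein of SCs, had reads before thinning in 17 of 22, with a median of 56.4 CPM. Fewer cells had a read of either gene after thinning. Neither gene was compared with the other cells here.

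Ngfr, Ncam1 and L1cam are adhesion and receptor genes of immature and non-myelinating SCs. Before thinning, Ncam1 had reads in all 22 cells, from 16.9 to 1710.4 CPM with a median of 359 CPM. The medians were 664 CPM in the other nm(R)SC-like and 6.03 CPM in the mSC-like cells. After thinning, Ngfr was read in 9 of 22 cells, beside 52 of 147 other nm(R)SC-like and 1 of 135 mSC-like cells. L1cam was read after thinning in 6 of 22, 91 of 147 and 9 of 135.

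**Figure D3:**
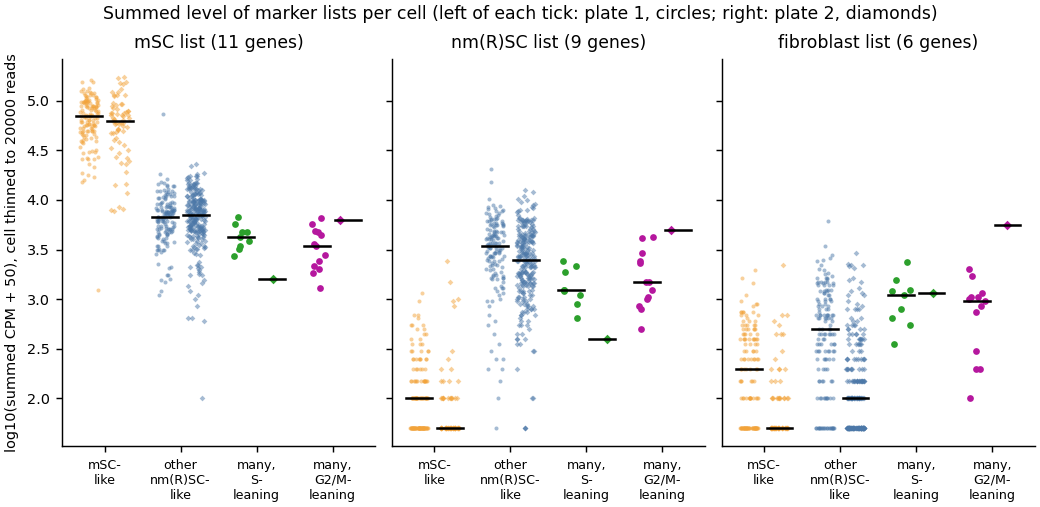
Summed level of the mSC, nm(R)SC and fibroblast marker lists in each cell, as log10(CPM + 50) after thinning to 20000 reads, with cells grouped by class and leaning on the x axis. For each group circles on the left are plate 1, diamonds on the right are plate 2 and black lines are medians, and all cells with many members lie far below the mSC-like median of the mSC list.

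Markers of other nerve cells were checked in the same cells. The 8 macrophage genes and the 5 mural genes were not read in any of the 24 cells, and the endothelial and lymphocyte lists reached at most 200 and 100 CPM. Of the 3 perineurial genes at least 1 was read in 19 of 22 cells of plate 1 (median 175 CPM) and 2 of 2 of plate 2. In plate 1 the same held for 108 of 147 other nm(R)SC-like and 100 of 135 mSC-like cells (medians 200 and 150 CPM). Of the 6 fibroblast genes 1 or 2 were read in each of the 22 cells of plate 1, and the list summed to a median of 925 CPM (50 to 2300 CPM) against 450 CPM in the other nm(R)SC-like cells. Of this list Col1a1, a collagen gene, was read in 22 of 22 cells and in 125 of 147 other nm(R)SC-like cells, while Dcn, which encodes the proteoglycan decorin, was read in 3 of 22. In plate 2 the G2/M-leaning cell stood apart: Dcn was at 4070 CPM and the fibroblast list at 5600 CPM, above every other cell of plate 2 that was used (the highest nm(R)SC-like cell had 2900 CPM, the highest mSC-like cell 2150 CPM). In that cell Sox10 was at 8.75 CPM, S100b was listed at 0 and Ncam1 was at 2021.9 CPM. Without this cell plate 2 had 1 cell with many members. Col1a1 and Dcn were chosen after their values were seen.

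D-type cyclins start the cycle in response to growth signals, and CDK inhibitors hold it back. In plate 1 the 10 genes of this list summed to a median of 2500 CPM in the cells with many members, 1100 CPM in the other nm(R)SC-like and 2150 CPM in the mSC-like cells. Named after their values were seen, Ccnd1 (cyclin D1) was read in 20 of 22, 110 of 147 and 26 of 135 of these cells, so most cells with it had few members. Cdkn1a (p21) was read in 18 of 22, 74 of 147 and 133 of 135, with medians of 312, 20.5 and 1393.5 CPM. Cdkn1b (p27) was read in 10 of 22, 68 of 147 and 112 of 135. Between the classes without the cells with many members, Cdkn1a and Cdkn1b were higher in mSC-like cells by a log2 ratio of 3.67 ± 0.41 and 2.45 ± 0.36 (SE, edgeR quasi-likelihood test, adjusted p = 0.0256 and 0.0375). Ccnd1 had a log2 ratio of -2.95 ± 0.62 and did not pass (edgeR adjusted p = 0.0945).

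In the cells without many members the S and G2/M genes were rarely read. Of the 43 genes, 32 were read in under 5% of these cells in both plates. The median share of cells with a read was 3.55% for S and 2.84% for G2/M members in plate 1, and 1.58% and 1.10% in plate 2. Cdc6 and Kif23 were read in 0 of 282 cells of plate 1, and Ccne1, Bub1, Plk1 and Nusap1 in 0 of 317 of plate 2. Of the remaining 11, Pcna, which also acts in DNA repair, had the highest share, with a read in 102 of 282 cells (36.2%, interval 30.6% to 42.1%) and 56 of 317 cells (17.7%, interval 13.6% to 22.3%). Mcm7, a subunit of the helicase, came next with 15.6% and 8.20%. The other 9 (Ccna2, Rrm1, Gins2, Mcm6, Cenpa, Tyms, Ube2c, Cenpf and Cdk1) were read in 4.61% to 9.22% of the cells of plate 1 and 1.26% to 5.68% of those of plate 2.

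**Figure D4:**
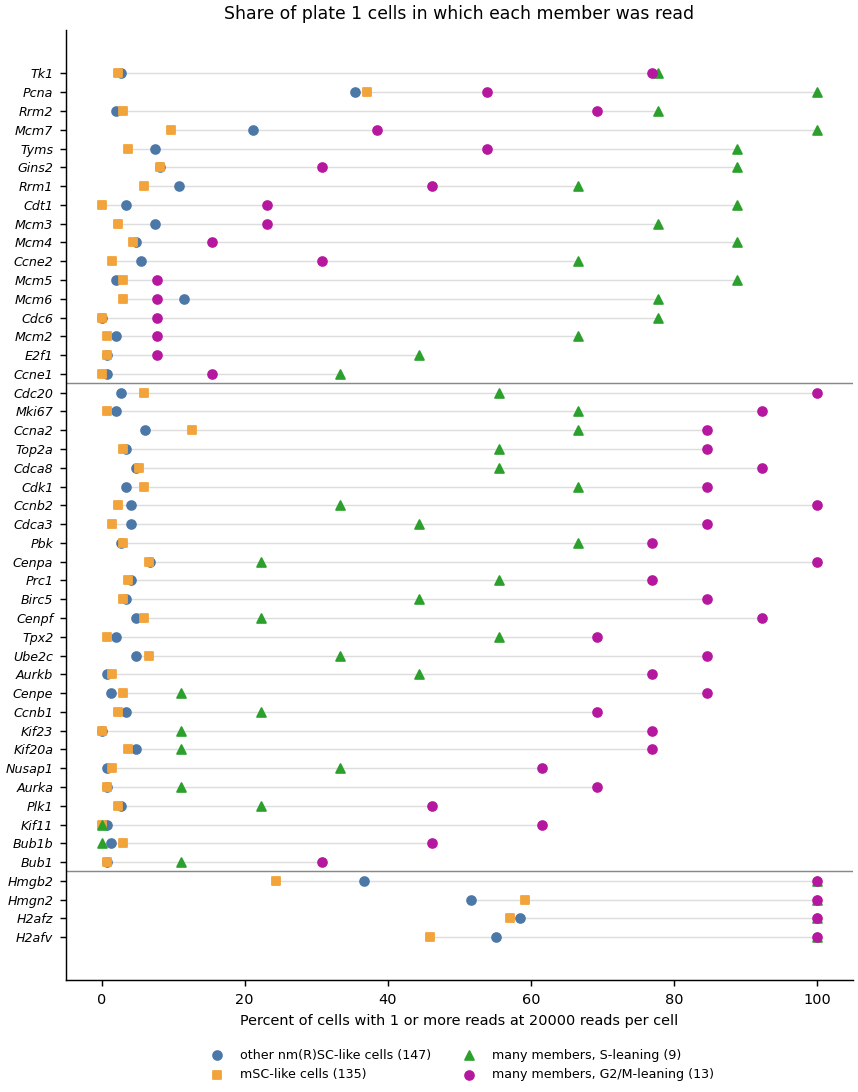
Percent of plate 1 cells with 1 or more reads of each member at 20000 reads per cell (x axis), for S-leaning (triangles) and G2/M-leaning (purple circles) cells with many members, other nm(R)SC-like (blue circles) and mSC-like cells (squares). Outside the cells with many members, only Pcna and the chromatin genes are read in more than 30% of cells of a class.

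In plate 1 the cells with 5 to 9 members made up 14 of 147 nm(R)SC-like cells (9.52%, interval 5.31% to 15.5%) and, among mSC-like cells, 7 of 135 (5.19%, interval 2.11% to 10.4%). In plate 2 they were 3 of 247 (1.21%, interval 0.251% to 3.51%) and 0 of 70 (interval 0% to 5.13%; a limit of 3 counts allows up to 4.29%). The intervals of the classes overlapped in each plate.

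Low reads of these genes in plate 1 went with the index names of the wells. Its wells are named by a first and a second index, and the 15 cells with 20 or more members used 11 first and 11 second names. Among the other cells that shared neither name with them, 13 of 44 (29.5%) had a read of a G2/M member and 0 had one of Top2a. Of the cells that shared 1 name, 77 of 159 (48.4%) had a G2/M member and 5 had Top2a. Of those that shared both names, each with a different such cell, 50 of 79 (63.3%) had a G2/M member and 4 had Top2a. The summed level of the G2/M members in these cells was 71.6, 135 and 114 CPM, in the same order. The share of cells with a read thus rose with the number of shared names, while the level was highest with 1 shared name, and their part in the low levels of the other cells was not tested. With an assumed exchange of 0.05% of the reads between such wells removed, 24 cells still had 10 or more members.

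Whether the members differed between mSC-like and nm(R)SC-like cells outside the cells with many members was tested on reads summed per plate and class, with the plate as a block. Of 47 members 44 passed the filter on low counts, and 0 passed an adjusted p of 0.05 (edgeR quasi-likelihood test, Benjamini-Hochberg over all genes), while 1.73% of all 13150 genes tested passed. At an unadjusted p under 0.05 there was 1 member, beside 12.8% of all genes. With DESeq2 2 members passed (Cenpf and Mcm3, a subunit of the helicase), beside 13.5% of all genes, and with edgeR on DESeq2 size factors 0 passed, beside 3.84%. The log2 ratio of mSC-like over nm(R)SC-like was below 0 for 29 members and above 0 for 15, with a median of -0.998 against -0.12 for all genes. With 4 sums and few reads the errors were wide, and the median ratio was -1.69 for S, -0.97 for G2/M and -0.16 for chromatin members. Of the 24 other S and 26 other G2/M genes tested, 0 passed and 0 had an unadjusted p under 0.05, with medians of 0.0043 and 0.10 (log2).

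The member with the unadjusted p under 0.05 was Cenpf (chromosome 1), a kinetochore gene, with levels in plate 1 of 26.5 CPM for nm(R)SC-like and 1.63 CPM for mSC-like cells, and of 6.78 and 0.17 CPM in plate 2. Its log2 ratio was -4.47 ± 1.87 (SE, edgeR adjusted p = 0.367, unadjusted p = 0.0424). Much of the plate 1 level lay in few cells, since 7 of 147 nm(R)SC-like cells had a read and the highest of them had 2145.2 CPM. Cenpf was also read in 8 of 135 mSC-like cells of plate 1. In plate 2 it was read in 5 of 247 nm(R)SC-like and 0 of 70 mSC-like cells. Mki67 had a log2 ratio of -2.23 ± 2.43 (SE, edgeR adjusted p = 0.824), with 5.66 and 0.82 CPM in plate 1 and 1.76 and 0.43 CPM in plate 2. The levels of Top2a were 1.35 and 1.11 CPM in plate 1, then 0.29 and 0.34 CPM in plate 2, and it had a log2 ratio of 0.14 ± 2.65 (SE, edgeR adjusted p = 1) whose sign turned without plate 2 (-0.16).

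The chromatin members, read in many cells, had smaller errors and no call. Hmgb2 had a log2 ratio of -0.97 ± 0.63, H2afv of -0.27 ± 0.44, Hmgn2 of -0.05 ± 0.39 and H2afz of 0.50 ± 0.42 (SE, edgeR adjusted p of 0.627, 0.904, 0.996 and 0.735). Of these only the sign of Hmgb2 was the same under all 10 alternatives.

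**Figure D5:**
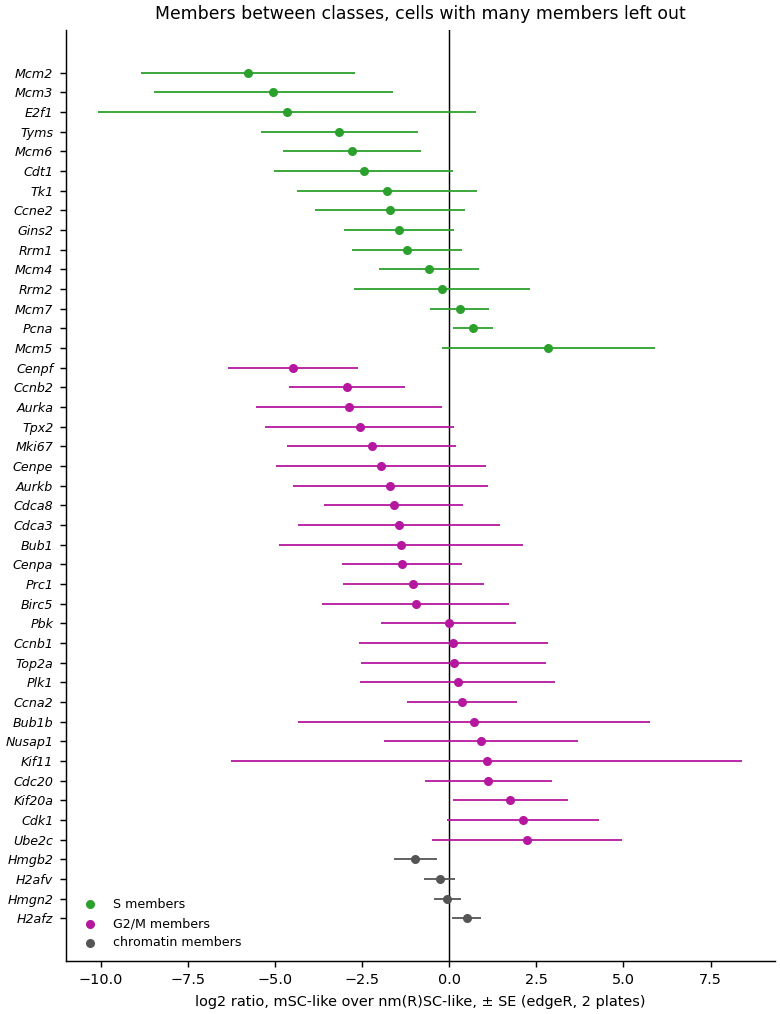
Log2 ratio of mSC-like over nm(R)SC-like cells (x axis) for the 44 members tested, without the cells with many members, from edgeR on 4 sums over 2 plates. Points are fitted ratios and bars are ± 1 standard error, and wide bars cross or approach 0 for most members.

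With the cells with many members put back into the nm(R)SC-like class, 42 of 45 members tested were lower in mSC-like cells, with a median log2 ratio of -3.47. Of these 1 passed, Cenpf (-5.75, edgeR adjusted p = 0.0285), and 16 had an unadjusted p under 0.05. Other genes were tested without these cells here too, and 1.76% of all genes passed and 12.9% had an unadjusted p under 0.05. These cells were chosen by the members and placed in 1 class, so these ratios are a description of their weight in the class.

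Wells under 20000 reads but with 1500 or more detected genes were described apart. They numbered 36 in plate 1 and 15 in plate 2, with medians of 4314 and 4081 reads. A median of 4 members was read per well in plate 1 (0 to 11) and of 7 in plate 2 (3 to 10), without thinning, and 1 well of each plate had 10 or more. No member had more than 4 reads in such a well. At an equal 4314 reads in plate 1 the 18 wells with enough reads had a median of 2 members, the other nm(R)SC-like cells 1 and the cells with many members 20.5. At 4081 reads in plate 2 the 8 wells had a median of 4, and the other nm(R)SC-like cells 0. The wells with most members thus carried many genes with few reads each. Among the cells with many members, Top2a reached 72 of 20000 reads in the highest cell. These read numbers are from unlike depths and cannot be compared directly.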

How the data were processed

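The authors sorted single eYFP-positive cells into wells, made Smart-Seq2 libraries and deposited raw counts of reads per gene and well. Per the labels' processing notes, reads were demultiplexed with bcl2fastq, aligned with STAR 2.6.1c to GRCm38.p5 and counted with featureCounts. The study's methods name another STAR version and a human build for these plates. Whether counting used strand is not given in the sources used here, so the 11 members whose exons overlap a gene on the other strand (Cdc20, Ube2c, Ccna2, Plk1, Kif20a, Nusap1, Prc1, Mcm7, Tk1, Gins2 and Ccne2) may hold reads of that gene. Without these 11, 18 cells had 10 or more of the remaining 32 S and G2/M members.

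The 768 wells belong to 2 plates, the replicates of 1 group. Ensembl identifiers were mapped to symbols, and members and lists were chosen with earlier results of these data known. Cells with 1500 or more genes and 20000 or more reads (304 and 319, with 20714 to 4076083 reads) were thinned to 20000 reads with a fixed seed. Cells with 10 or more S and G2/M members were left out, the others were integrated by canonical correlation analysis (12 dimensions, resolution 0.5) in Seurat 5.3.0 under R 4.3.3 on genes outside the members, and clusters were named by the marker list with the higher mean standardised level. No doublet caller was run, as cells were sorted singly.

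Raw counts summed per plate and class (4 sums, 1 residual degree of freedom) were compared by edgeR's quasi-likelihood test (version 4.0.16; TMM, filterByExpr with a minimum count of 10, plate block, adjusted p under 0.05). Other genes were tested between classes built from a set of genes that did not hold them. DESeq2 1.42.0 was an alternative, and the test was checked on simulated data, where at the spread of these sums it called few of the genes made to differ. The plate pairs the classes, because each plate's mice gave both; the log2 plate ratios of the 2 classes had a Pearson r of 0.208 across 7993 genes, which are not independent replicates. With the plate as a block, the p-values do not rest on the difference between the plates. They rest on the spread of the class ratio between these 2 plates after edgeR draws it toward a trend over all genes. With 1 residual degree of freedom, much of that spread is borrowed from other genes. Mki67, Top2a, members called, the 5 read most often and least often (with ties) and the chromatin members are named with values, with markers of SCs, of which 1 is not reported here.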

Additional observations from a re-analysis of the deposited data

Results flagged for a closer look

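Wells with 1500 or more genes but under 20000 reads took part in no test between classes, and reads of the G2/M members appeared in them above the level of the cells without many members. In plate 1 the 36 such wells held 124 G2/M reads among 216721, which is 572 CPM (Poisson interval 476 to 682 CPM), against 120 CPM in the 282 cells without many members and 1267 CPM in all kept cells of the plate. In plate 2 the 15 wells held 100 G2/M reads among 100567, which is 994 CPM (interval 809 to 1209.4 CPM), against 58.7 CPM in the 317 cells without many members and 69.4 CPM in all kept cells. The 44 wells of plate 1 with under 1500 genes, all under 20000 reads, stood at 617 CPM. The 43 wells of plate 2 with under 1500 genes and under 20000 reads stood at 1521.2 CPM, and the 7 with under 1500 genes but more reads at 32.97 CPM. Summed S members stood at 222 CPM (plate 1) and 348 CPM (plate 2) in the low-read wells, against 257 and 194 CPM in the cells without many members.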

How the results depend on the processing

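The number of cells with many members was 24 and lay between 18 and 24 with a minimum of 15 members, with 5 unthinned reads or 50 CPM per member, with another seed, with 1000 or 2500 genes per cell, with expected exchanged reads removed and, chosen after seeing the data, with members free of exon overlap. It was 48 with a minimum of 5 members and 15 with a minimum of 20. With the 66 other cell cycle genes in place of the members, also chosen after seeing the data, it was 46 and included all 24. The minimum of 10 was kept for this longer list, so the bar was lower, and other cells of plate 1 had up to 16 of its genes. Leaving out a plate gave 2 to 22 cells, all nm(R)SC-like (2 to 22), of which 1 to 13 leaned to G2/M: plate 1 held nearly all of them, and without it 2 remained. The mean share of 3.93% ranged from 2.47% to 7.86% over the alternatives, all of which used both plates. Plate 1 alone gave 7.24% and plate 2 alone 0.627%. Members called between classes numbered 0 in the planned fit and without the replicate block (0), 2 with DESeq2 (Cenpf, -4.43, and Mcm3, -5.11) and 1 with the cells with many members included. Genes called in all numbered 227 (1.73%), 1780 with DESeq2 (13.5%) and 276 without the replicate block, and were 3.84% with edgeR on DESeq2 size factors. The sign of Top2a turned with the cells with many members included (-4.09) and without 1 replicate (-0.16 to 0.050), that of H2afz likewise (-0.24; -0.22 to 0.86), that of Hmgn2 without 1 replicate (-0.49 to 0.041), and that of H2afv without integration (0.093) and without 1 replicate (-1.08 to 0.18). The log2 ratio of the other cell cycle genes was 1.52 to 3.18 without 1 plate, and its mean was 2.52 with each cell thinned before summing. For these genes no test was run, nor its alternatives with DESeq2, size factors, no replicate block or no filter, since plate 2 held 2 cells with many members. The causes were not tested. At 20000 reads per cell, 1 read is 50 CPM.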

Other observations

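Immediate early genes, which dissociation and growth signals switch on, were summed in the cells with many members and in the other cells, with no test. The 12 genes of this list summed to a median of 6300 CPM in the cells with many members of plate 1 (100 to 19350 CPM), 10500 CPM in the other nm(R)SC-like cells and 7850 CPM in mSC-like cells, with overlapping ranges. By leaning the median was 7300 CPM in S-leaning and 3050 CPM in G2/M-leaning cells. The 22 cells were spread over 13 of 24 first index names and 13 of 16 second index names of plate 1, with at most 4 and 3 cells under 1 name.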
